A study of Mus musculus with 16 samples.

Results

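The genes of the cytosolic ribosomal proteins were followed in macrophages of mouse muscle, with and without muscle damage and with and without Glud1. Members were chosen by symbol: Rpl or Rps, then digits, then at most one of the letters a, l and x, together with the stalk genes Rplp0, Rplp1 and Rplp2 and with Rpsa. Ribosomal S6 kinases, symbols marked as pseudogenes and genes without a count were left out. Of 24421 gene symbols in the table, 81 fitted the pattern. Rpl26 and Rpl10l had no count in any library, which over all libraries allows up to 0.009 counts per 1e6 counts of the library (CPM), and 79 members were left: 44 of the large subunit, 32 of the small subunit and 3 of the stalk. A filter on low counts passed 77 members. Rpl30, with 74 counts over the 16 libraries, and Rpl39l, with 52, did not pass it.

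Cells had been sorted from muscle as F4/80+ and full-length cDNA had been made from their RNA with the SMART-Seq V4 kit, in 4 groups of 4 libraries. The groups were WT and KO from normal muscle and WT and KO from CTX-injected muscle. KO stands for Glud1-deficient per the study's design text, which names the samples baseline and peak of muscle damage. Glud1 codes for the mitochondrial enzyme glutamate dehydrogenase. The labels give no age or strain, no time after injection, no driver of the deletion, and nothing that all groups carry in common. They do not say that libraries came from separate mice either, so each p-value covers the spread between libraries alone, part or all of which may be technical.

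Library totals lay between 17051892 and 23097420 counts. Glud1 itself was counted at 255 ± 30.2 CPM (SD, n = 4) in WT and 240 ± 25.3 in KO normal muscle, and at 372 ± 19.9 in WT and 338 ± 10.5 in KO CTX muscle. Its KO against WT log2 fold change was -0.09 ± 0.10 (SE; edgeR adjusted p = 0.991) in normal and -0.14 ± 0.10 (adjusted p = 0.936) in CTX muscle, and since the deleted part is not given, a whole-gene count does not check the genotype labels. The 10 macrophage markers summed to between 10632 and 19540 CPM in libraries of normal muscle and between 22097 and 36294 CPM after CTX. Lyz2 and Cd14 made up most of the CTX sums, and the list was not uniform. Mean Csf1r went from 3150 to 1740 CPM in WT and from 2860 to 1650 in KO. Mean Mertk went from 79.1 to 33.6 CPM in WT and from 69.6 to 42.6 in KO. The means of the other markers of the list were higher after CTX. Markers of other cells were present: the 7 T and NK cell markers measured summed to 23.9 to 63.4 CPM before and 0.9 to 5.9 CPM after CTX, and the 8 muscle fibre markers to 12 to 40.8 and 2.9 to 5.2 CPM. Neutrophil markers, 5 of 6 measured, spanned 167 to 4192 CPM in normal muscle and 115 to 787 CPM in CTX muscle. Endothelial markers summed to 117 to 230 CPM before and 60 to 80.2 CPM after CTX, fibroblast markers to 185 to 888 and 54.3 to 99.9 CPM, and B cell markers to 11.6 to 41.8 and 1.2 to 9.4 CPM. The 6 monocyte markers went the other way, with sums of 777 to 1698 CPM before and 3237 to 4135 CPM after CTX; of these, 2 rose in WT and 3 in KO with TMM scaling and none fell. The part of these other cells in the changes of the members was not tested. Judged by Xist and Y-linked genes, 3 normal libraries (WT 5, WT 6 and KO 5) were female and all others male.

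The cytosolic ribosome reads mRNA and joins amino acids into protein. Its small subunit holds the mRNA and the decoding site, its large subunit holds the peptidyl transferase centre, and the acidic stalk of Rplp0, Rplp1 and Rplp2 recruits elongation factors. The messages of these proteins are known as TOP mRNAs: they begin with a C followed by a stretch of pyrimidines, through which the kinase complex mTORC1 and the binding protein Larp1 control their translation. In macrophages, as in other cells, ribosome supply is tied to growth and to the output of secreted protein.

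Start-site sequences are shown first, because the pyrimidine run at the start is the sequence feature for which these messages are known. RefSeq promoters on GRCm38.p6 were found for 58 of the 79 members, 70 promoters in all. A run of at least 8 C or T letters, opening with C within 5 bases of the annotated start, on the strand of the gene, was present in 20 of the 58 members (34.5%). Over all 27025 genes of the same promoter table the share was 5.2%, and over the 13849 of them that had a count in these libraries it was 5.7%. The windows that follow hold 10 bases before and 20 after the annotated start, 5′ to 3′, with the run in capitals. The first set shows members with a run, among them Rpl38 (chr11:114668570-114668599, plus strand), whose rise in injured muscle was the largest in WT, and Rps27 (chr3:90213629-90213658, minus strand), which was counted at a very low level. Rpl15 (chr14:18270967-18270996, minus strand), Rpl35 (chr2:39005112-39005141, minus strand) and Rps18 (chr17:33955646-33955675, minus strand) show longer runs.
Rpl38: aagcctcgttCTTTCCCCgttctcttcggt
Rps27: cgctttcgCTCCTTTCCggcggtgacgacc
Rpl15: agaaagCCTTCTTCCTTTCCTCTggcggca
Rpl35: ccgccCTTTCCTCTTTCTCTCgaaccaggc
Rps18: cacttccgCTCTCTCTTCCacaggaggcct

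The second set shows members without such a run at the RefSeq start. Rps27l (chr9:66946076-66946105, plus strand), Rpl24 (chr16:55966265-55966294, plus strand) and Rpl27 (chr11:101442235-101442264, plus strand) rose more in injured muscle than most other members. Rpl22 (chr4:152325716-152325745, plus strand) rose little, and Rplp0 (chr5:115559457-115559486, plus strand) had the highest level.
Rps27l: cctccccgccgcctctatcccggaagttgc
Rpl24: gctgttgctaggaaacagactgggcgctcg
Rpl27: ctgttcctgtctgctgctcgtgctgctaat
Rpl22: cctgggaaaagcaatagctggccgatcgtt
Rplp0: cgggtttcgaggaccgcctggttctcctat

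The windows depend on where RefSeq puts the start, and a gene without a run here may begin elsewhere. A second motif, CCGGAAGT, the core bound by ETS factors, was searched on both strands in the whole promoter of 250 bases before and 50 after the start. It was present in 11 of the 58 members (19.0%), in 4.3% of all genes of the table and in 6.9% of those with a count. The Rps27l window above holds it in lower case, and it does not overlap a pyrimidine run there. The injury response differed little between the sets: in WT the median log2 fold change was 0.91 for the 20 members with a run and 0.87 for the 37 tested members without one, and in KO it was 0.80 and 0.69. Rpl38 and Rps27l, which rose most, fall on different sides of that division.

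Levels of the members were compared per length, as TMM-scaled CPM per kilobase of annotated exon. TMM scaling sets each library's size so that most genes keep a stable value between libraries. Rplp0, the stalk base, was the highest, with 185 ± 25.9 (SD, n = 4) CPM per kilobase in WT normal, 206 ± 39.2 in KO normal, 359 ± 17.6 in WT CTX and 340 ± 21.6 in KO CTX muscle. The large-subunit gene Rpl4 followed with 166 ± 24.0 and 192 ± 31.3 in WT and KO normal muscle and 269 ± 18.5 and 256 ± 12.1 in WT and KO CTX muscle. In CTX muscle the libraries of Rplp0 lay above all those of Rpl4, whereas in normal muscle the ranges overlapped.

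Rplp1, the partner of Rplp2 on the stalk, came next (156 ± 27.3 CPM per kilobase in WT normal, 274 ± 18.9 in WT CTX). Rpl32 of the large subunit, also near the top, was at 113 ± 28.8 and 212 ± 13.4. Rplp1 overlapped Rpl4 in range in WT normal and in WT CTX muscle, so these neighbours could not be ordered. Dividing by the length of coding transcripts in place of all exons left Rplp0 first and moved Rpl4 to place 6 and Rplp1 to place 15, so the order beneath Rplp0 rests on the length used.

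At the other end stood 5 genes that lay apart from the rest in the plot of length-scaled levels. Rpl3l, a paralog of Rpl3 known from striated muscle, had 320 counts in all libraries together, Rps27 had 191 and Rpl34 had 389. Rpl30 and Rpl39l, a testis-enriched paralog of Rpl39, were counted at most 7 and 12 times in a library. Rps27, Rpl34 and Rpl30 code for core proteins of the ribosome. Of the 50-base stretches of their coding transcripts, 46.2% (Rps27), 11.0% (Rpl34) and 72.8% (Rpl30) also occur in transcripts of other genes in GENCODE M21. The sources used here do not say how reads that map to several places were counted, and the part of such reads in these low counts was not tested. A high shared fraction was also present in well-counted members, at 81.7% for Rpl24, 85.4% for Rpl5 and 95.1% for Rpl35, and Rps27l shared 16.2%.

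**Figure D1:**
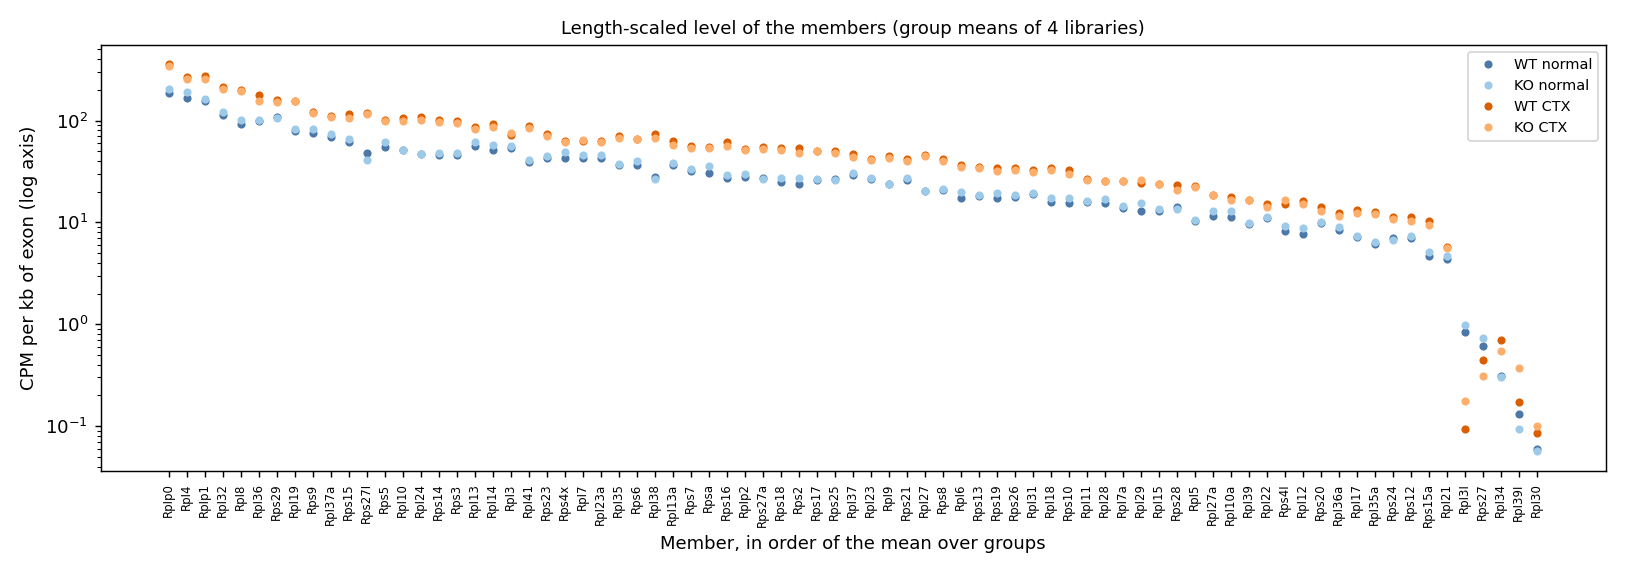
TMM-scaled CPM per kilobase of exon (log axis) for 77 of the 79 members, in order of the mean over the groups; each point is the mean of 4 libraries of a group. Rplp0 leads, CTX points lie above normal points along most of the order, and Rpl3l, Rps27, Rpl34, Rpl39l and Rpl30 form a low tail.

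Summed over all members, TMM-scaled counts were higher in CTX than in normal muscle in both genotypes. The sums were 5894, 4750, 4983 and 4128 CPM in WT normal libraries 2, 3, 5 and 6, and 6661, 5630, 4838 and 4107 CPM in KO normal libraries 1, 2, 3 and 5. In CTX muscle, libraries 1 to 4 gave 8967, 9202, 8150 and 9336 CPM in WT and 8277, 9278, 8664 and 7963 CPM in KO. The lowest CTX library lay above the highest normal library in both genotypes. The mean rose 1.80-fold in WT (4939 ± 732 to 8914 ± 532 CPM, SD, n = 4) and 1.61-fold in KO (5309 ± 1090 to 8545 ± 566 CPM).

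As a plain share of the library total the members changed far less. They took 0.756%, 0.538%, 0.583% and 0.506% of counts in WT normal libraries 2, 3, 5 and 6, and 0.874%, 0.756%, 0.578% and 0.511% in KO normal libraries 1, 2, 3 and 5. The CTX shares were 0.707%, 0.715%, 0.618% and 0.759% in WT and 0.677%, 0.753%, 0.730% and 0.690% in KO libraries 1 to 4. Here the groups overlapped, and the mean was 1.17-fold higher in WT and 1.05-fold higher in KO. The scalings part because TMM factors were 1.13 to 1.34 in normal and 0.76 to 0.87 in CTX libraries: total-count scaling moved the median log2 fold change of all tested genes from -0.15 to -0.77 in WT and from -0.16 to -0.77 in KO. A measure that needs no scaling is the median percentile of the members among the 13649 tested genes of their library. It was 68.9 to 76.6 in WT normal and 78.1 to 82.1 in WT CTX libraries, without overlap, and 68.2 to 80.6 in KO normal and 79.8 to 82.5 in KO CTX libraries, where KO normal library 1 overlapped the CTX range.

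**Figure D2:**
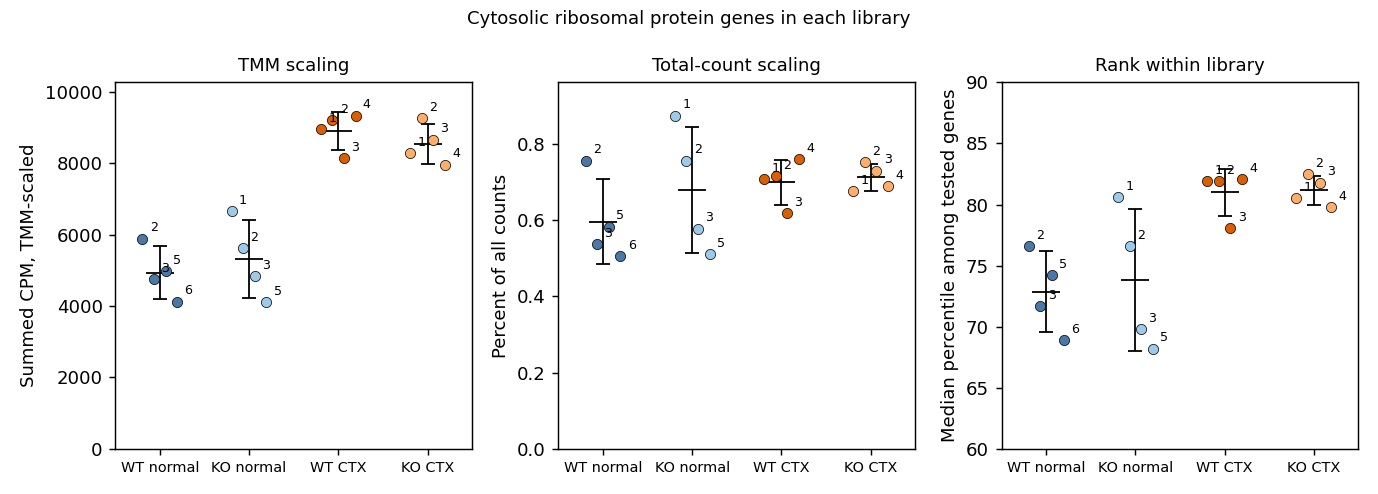
Each point is a library, labelled with its replicate number, and the bar shows mean and SD of 4; the panels give the summed TMM-scaled CPM of the 79 members, their percent of all counts, and the median percentile of the tested members (this axis starts at 60). CTX libraries stand apart with TMM scaling and overlap normal libraries as a percent of counts, and normal libraries spread more widely than CTX libraries.

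The normal libraries differed among themselves in these genes. KO normal library 1 was the highest of the 8 normal libraries for 71 of 77 members, while KO normal library 5 was the lowest for 33 and WT normal library 6 for 26. The share of all tested genes that were highest or lowest in these libraries is not given, so these counts only describe the members. The median coefficient of variation of a member was 16.1% in WT normal and 21.7% in KO normal muscle, against 7.0% in WT CTX and 7.8% in KO CTX muscle. Over all tested genes it was 18.5%, 19.3%, 14.7% and 12.1% in the same order. The libraries with the lowest member sums, WT normal 6 and KO normal 5, were female and held the highest level of the nuclear RNA Malat1 (6964 and 7301 CPM), and KO normal libraries 1 and 2 and WT normal library 2, with the highest sums, held the lowest (1120, 869 and 1382 CPM). Neutrophil markers ran the other way, with 195 and 167 CPM in the former and 1320, 4192 and 2883 CPM in the latter, and monocyte markers did too, with 907 and 782 CPM against 1650, 1698 and 1581 CPM. The part of sex, neutrophil or monocyte RNA and Malat1 in the member sums was not tested. In such bulk libraries, more cells of a type and more RNA per cell cannot be told apart.

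The response of single members to injury was near uniform with TMM scaling. In WT, 74 of 77 tested members rose and 1 fell (edgeR adjusted p under 0.05), where 33.3% of all tested genes rose and 39.4% fell. In KO, 72 rose and 2 fell, where 33.3% of all genes rose and 40.2% fell. The 72 that rose in KO all rose in WT as well. The changes were modest in size: the median log2 fold change was 0.88 in WT and 0.72 in KO, only 21 and 7 members reached a 2-fold rise, and the other 53 and 65 members that rose did so by less. All 4 CTX libraries lay above all 4 normal libraries for 73 members in WT and 65 in KO, and below them for 1 member in each. The share of all tested genes that separate in this way was not counted, so these counts only describe the members.

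With total-count scaling 22 members rose and 2 fell in WT, where 14.2% of all genes rose and 61.1% fell. In KO 9 rose and 3 fell, where 14.1% of all genes rose and 61.5% fell. The 9 that rose in KO, of 77 tested, were not a larger share than that of all genes, while members fell far less often. All 9 also rose in WT. The median log2 fold change was then 0.26 in WT and 0.10 in KO. Set against the median of all tested genes, the members stood 1.03 higher on the log2 scale in WT with either scaling, and 0.88 (TMM) or 0.86 (total count) higher in KO. A change of scaling moves all genes of a comparison by nearly the same amount (0.62 in WT and 0.61 in KO). This distance is therefore near equal under both scalings by construction, and it cannot tell which scaling is right. CTX libraries lay above normal ones without overlap for 10 members in WT and 3 in KO with this scaling, and below them for 2 and 1. The share of all tested genes that separate so was not counted here either, so nothing particular to the members is read from this.

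**Figure D3:**
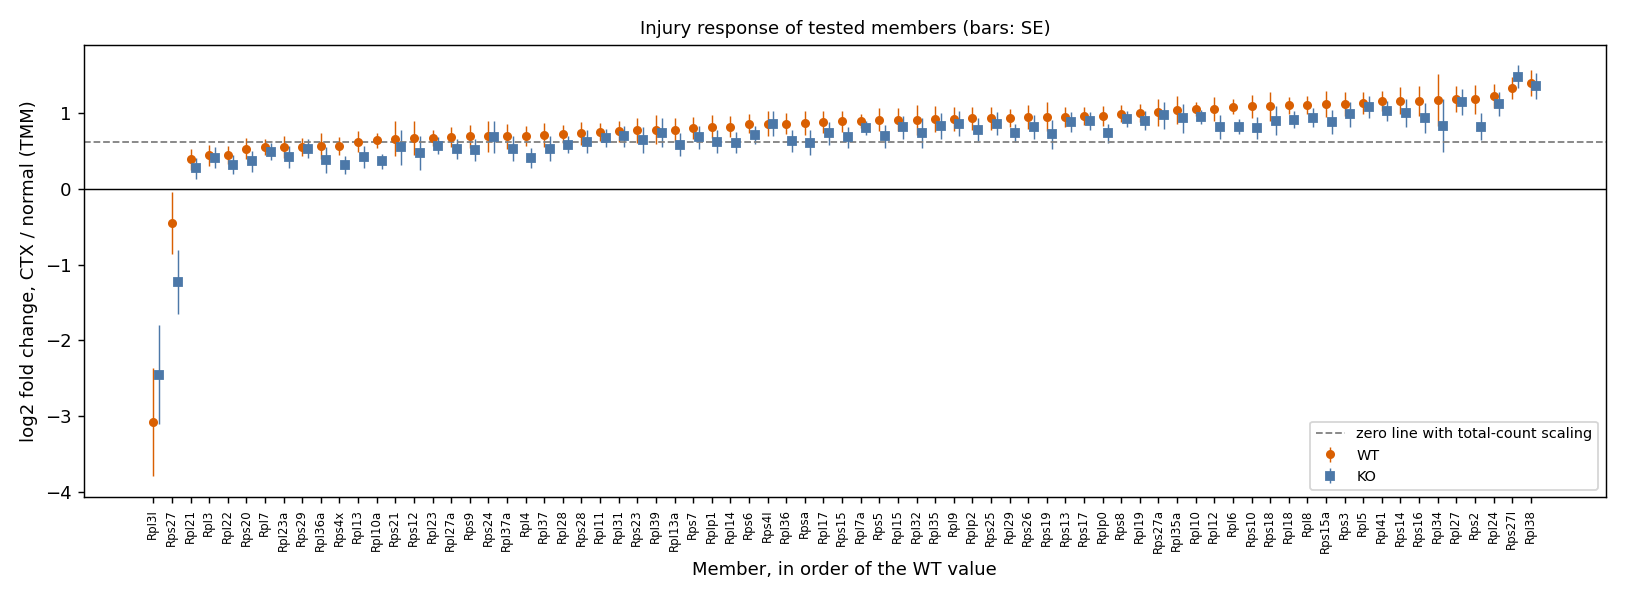
Log2 fold change of CTX against normal muscle with TMM scaling for 75 of the 77 tested members, in order of the WT value; points are edgeR estimates, bars are SE, and the dashed line at 0.62 marks where zero lies in WT with total-count scaling (0.61 in KO). All but Rpl3l and Rps27 among them lie above zero in both genotypes, and most KO values sit a little beneath the WT value.

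By subunit, 40 of 42 tested large-subunit members, 31 of 32 small-subunit members and all 3 stalk members rose in WT with TMM scaling, where 33.3% of all tested genes did. Their median log2 fold changes were 0.84, 0.90 and 0.93, and the differences between the subunits were not tested. Of the stalk genes, Rplp0 was counted at 362, 281, 316 and 266 CPM in WT normal libraries 2, 3, 5 and 6 and at 606, 623, 555 and 599 CPM in WT CTX libraries 1 to 4. In KO it was at 405, 364, 343 and 251 CPM in normal libraries 1, 2, 3 and 5 and at 545, 615, 564 and 534 CPM in CTX libraries. Injured muscle was higher without overlap in both genotypes. The log2 fold change was 0.96 ± 0.13 (SE; adjusted p = 1.04e-05) in WT and 0.73 ± 0.13 (adjusted p = 0.000152) in KO, and 0.34 and 0.11 with total-count scaling, where neither passed the test.

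Rps27l, a close paralog of the small-subunit gene Rps27 and known as a p53-induced gene, showed the largest rise in KO. It was at 37.5, 43.2, 44.4 and 30.0 CPM in WT normal libraries 2, 3, 5 and 6 and at 96.0, 91.0, 88.6 and 114 CPM in WT CTX libraries. In KO, normal libraries 1, 2, 3 and 5 gave 42.9, 34.4, 27.6 and 29.3 CPM and CTX libraries 88.7, 96.2, 103 and 87.2 CPM. Every CTX library held about 2 or more times the level of every normal library. The log2 fold change was 1.33 ± 0.15 (SE; adjusted p = 7.8e-07) in WT and 1.48 ± 0.15 (adjusted p = 2.55e-07) in KO with TMM scaling, and 0.72 (adjusted p = 0.000559) and 0.87 (adjusted p = 0.000109) with total-count scaling. It is thus among the 9 that rose under both scalings in both genotypes. The share of all tested genes that did so is not given.

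Rpl38 of the large subunit, known for its part in translating Hox mRNAs in the embryo, rose most in WT. Levels were 17.3, 16.3, 15.9 and 11.2 CPM in WT normal libraries 2, 3, 5 and 6 and 37.4, 38.8, 37.9 and 44.9 CPM in WT CTX libraries. KO libraries gave 19.4, 15.3, 12.7 and 9.95 CPM in normal and 35.3, 40.2, 38.1 and 33.4 CPM in CTX muscle. The groups were far from overlapping. The TMM log2 fold change was 1.39 ± 0.17 (SE; adjusted p = 2.78e-06) in WT and 1.36 ± 0.17 (adjusted p = 3.48e-06) in KO, and with total counts it was 0.77 and 0.73 (adjusted p = 0.00134 and 0.00198).

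Rpl24, at the subunit interface, followed with a TMM log2 fold change of 1.22 in WT and 1.12 in KO, and Rpl27 of the large subunit with 1.18 and 1.14. Rps2 of the small subunit rose by 1.18 in WT and 0.82 in KO. Its CTX libraries 1 to 4 were uneven, with 120.3, 118.3, 71.08 and 83.36 CPM in WT and 94.7, 106.8, 78.89 and 74.99 CPM in KO. The size of its rise thus leans on CTX libraries 1 and 2. The rise of Rpl24 and Rpl27 also passed the test with total-count scaling in both genotypes, whereas that of Rps2 passed it there only in WT (0.56, adjusted p = 0.0144, against 0.20 and 0.352 in KO); the difference between the genotypes was not called (interaction adjusted p = 1). Rpl34, one of the sparse members, was at 1.17 in WT and 0.83 in KO with 8 to 44 counts in a library. Its KO rise (adjusted p = 0.0398) was lost when any KO library but CTX library 4 was left out, with adjusted p between 0.0508 and 0.113. Rpl10 and Rpl18 of the large subunit and Rpl41, the shortest ribosomal protein, were with Rps27l, Rpl38 and Rpl24 the 6 members of smallest p among those that rose in both genotypes with total counts.

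**Figure D4:**
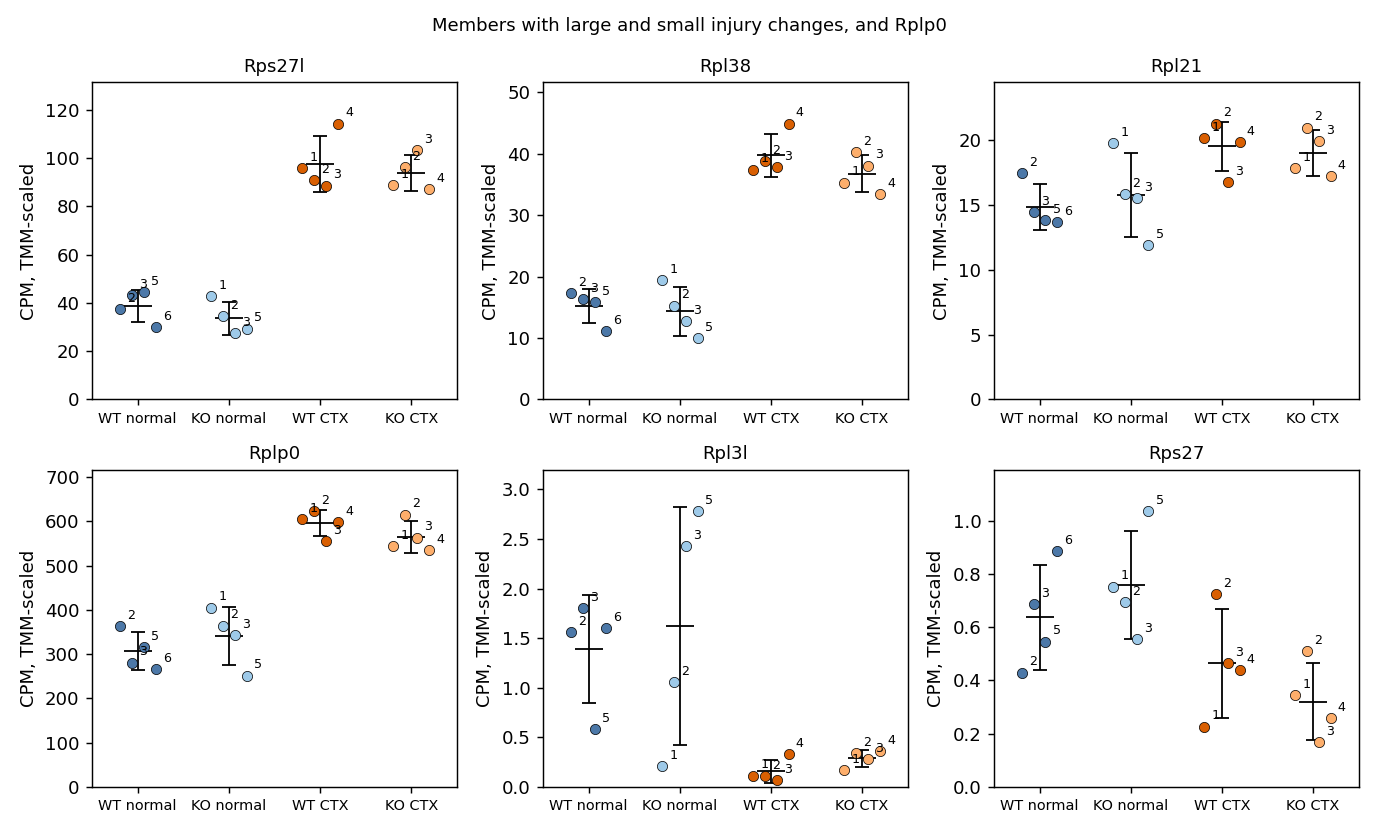
TMM-scaled CPM of 6 members in every library, labelled with its replicate number, with mean and SD of 4. Rps27l, Rpl38 and Rplp0 are higher in CTX muscle without overlap, Rpl21 overlaps between the injury groups, and Rpl3l and Rps27, at a few CPM or less, are lower in most CTX libraries.

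Rpl21 of the large subunit was among the members that responded least with TMM scaling. It was at 17.5, 14.5, 13.9 and 13.7 CPM in WT normal libraries 2, 3, 5 and 6 and at 20.2, 21.3, 16.8 and 19.9 CPM in WT CTX libraries. KO libraries gave 19.8, 15.9, 15.6 and 11.9 CPM in normal and 17.85, 20.99, 19.96 and 17.24 CPM in CTX muscle. The injury groups overlapped in both genotypes.

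Rpl21, Rpl3 and Rpl22 of the large subunit had TMM log2 fold changes in WT of 0.39, 0.44 and 0.45 (adjusted p = 0.019, 0.0109 and 0.00356). In KO the values were 0.27, 0.41 and 0.32 (adjusted p = 0.0966, 0.016 and 0.0247). All 3 had the opposite sign with total counts in both genotypes (-0.17 to -0.35), where none passed the test. Their TMM calls were also lost with upper-quartile scaling, and the calls of Rpl21 and Rpl3 in WT with a filter of 5 CPM or in male libraries alone. With the replicate number as a block, the WT values were 0.23, 0.22 and 0.30 (adjusted p = 0.191, 0.159 and 0.071) and that of Rpl22 in KO 0.27 (adjusted p = 0.0617), none of them called. Rpl3 in KO lost its call with the 5 CPM filter (0.132), and Rpl22 in KO with that filter, with limma voom, with only the 2 groups and in male libraries (0.0663 to 0.256). In WT, leaving out normal library 6 ended the calls of Rpl21 and Rpl3 (adjusted p = 0.0673 and 0.0531), and leaving out normal library 3 or 5 or CTX library 2 that of Rpl21 (0.0514, 0.0577 and 0.0529). In KO, leaving out normal library 5 ended the calls of Rpl3 and Rpl22 (0.0655 and 0.0986), and leaving out normal library 3 or CTX library 2 that of Rpl22 (0.057 and 0.0972), while Rpl21 passed the test without normal library 1 (0.40, adjusted p = 0.0196).

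With TMM scaling, Rpl3l was the lone member that fell in both genotypes. It was at 1.56, 1.81, 0.585 and 1.60 CPM in WT normal libraries 2, 3, 5 and 6 and at 0.113, 0.112, 0.0664 and 0.330 CPM in WT CTX libraries. In KO it was at 0.209, 1.06, 2.43 and 2.78 CPM in normal libraries 1, 2, 3 and 5 and at 0.173, 0.340, 0.280 and 0.364 CPM in CTX libraries. WT groups did not overlap, whereas KO normal library 1 lay within the KO CTX range. The log2 fold change was -3.08 ± 0.71 (SE; adjusted p = 0.00103) in WT and -2.45 ± 0.65 (adjusted p = 0.0029) in KO, and the KO fall was not called by limma voom (-1.27, adjusted p = 0.0886). Muscle fibre markers fell beside it, with 6 of 7 tested markers lower in WT and 7 of 7 in KO, where 39.4% and 40.2% of all tested genes fell. Their sums were 15.3, 15.3, 36.7 and 40.8 CPM in WT normal libraries 2, 3, 5 and 6, 17.7, 12, 14.5 and 40.4 CPM in KO normal libraries 1, 2, 3 and 5, and 2.9 to 5.2 CPM in CTX libraries. No marker of that list was at 0 in all libraries. The part of fibre RNA in the Rpl3l values was not tested.

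Rps27, whose protein sits on the small subunit, was counted 3 to 22 times in a library. Levels were 0.430, 0.688, 0.546 and 0.886 CPM in WT normal libraries 2, 3, 5 and 6 and 0.226, 0.724, 0.465 and 0.440 CPM in WT CTX libraries, which overlapped. In KO they were 0.753, 0.694, 0.554 and 1.04 CPM in normal libraries 1, 2, 3 and 5 and 0.345, 0.509, 0.168 and 0.260 CPM in CTX libraries, without overlap. The TMM log2 fold change was -0.45 ± 0.41 (SE; adjusted p = 0.335) in WT and -1.23 ± 0.42 (adjusted p = 0.0157) in KO; the genotypes' responses were not called different (-0.78 ± 0.59, adjusted p = 1). The KO fall was not called without KO CTX library 3 (-1.02, adjusted p = 0.0547), with the replicate number as a block (-1.09, adjusted p = 0.0637) or in male libraries alone (-1.06, adjusted p = 0.0513). With total counts Rps27 fell in both genotypes, by 1.06 in WT (adjusted p = 0.0288) and by 1.84 in KO (adjusted p = 0.000937).

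To see which members moved against the rest of the set, each library was scaled by its summed member count, which needs no library size. On this scale 14 members rose and 12 fell in WT, where 7.14% of all tested genes rose and 67.4% fell, and 11 rose and 13 fell in KO, where 9.26% rose and 62.2% fell. Of the 26 called in WT and 24 called in KO, 19 were called in both (73.1% and 79.2% of the lists), all in the same direction. No library enters both fold changes, but all 16 libraries shared the estimate of the spread of each gene. Same-numbered normal WT and KO libraries also deviated together, so neither the fold changes nor the calls are independent.

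The 9 that gained in both were Rpl38, Rps27l, Rpl24, Rpl27, Rpl5, Rpl41, Rps14, Rps16 and Rps3. Rpl5 binds the 5S rRNA and the p53 regulator Mdm2, Rps14 belongs to the platform and Rps16 to the head of the small subunit, and Rps3 lines the mRNA entry. Rpl38 took 2942, 3431, 3186 and 2708 per 1e6 member counts in WT normal libraries 2, 3, 5 and 6 and 4174, 4215, 4646 and 4808 in WT CTX libraries. In KO it took 2914, 2712, 2628 and 2423 in normal libraries 1, 2, 3 and 5 and 4264, 4336, 4394 and 4193 in CTX libraries. This is a shift of 0.54 ± 0.11 (SE; adjusted p = 0.000341) on the log2 scale in WT and 0.69 ± 0.11 (adjusted p = 4.09e-05) in KO, with no overlap in either. The shift of Rps27l was 0.47 (adjusted p = 0.00398) in WT and 0.79 (adjusted p = 5e-05) in KO, and the other 7 shifted by 0.27 to 0.37 in WT and by 0.27 to 0.46 in KO.

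Among the 10 that lost ground in both were Rpl21, Rpl3, Rpl22, Rpl23a, Rpl36a, Rps20, Rps4x and the sparse Rpl3l and Rps27. Rpl21 went from 2962, 3042, 2779 and 3321 per 1e6 member counts in WT normal libraries 2, 3, 5 and 6 to 2248, 2314, 2062 and 2130 in WT CTX libraries. KO normal libraries 1, 2, 3 and 5 gave 2970, 2818, 3218 and 2905, and KO CTX libraries 2156, 2263, 2304 and 2165. Its CTX values all lay beneath its normal ones. The shift was -0.47 ± 0.11 (SE; adjusted p = 0.000995) in WT and -0.42 ± 0.11 (adjusted p = 0.00228) in KO. Rpl3 gave -0.41 and -0.28 and Rpl22 -0.41 and -0.38. Rps4x and Rpl36a lie on the X chromosome, and all CTX libraries were male: in male libraries alone their shifts were -0.28 and -0.30 in WT (adjusted p = 0.0595 and 0.057, no longer called) and -0.38 and -0.34 in KO (adjusted p = 0.00635 and 0.0196). Single libraries also decided some calls: of the 18 members named as called in both genotypes, 10 kept both calls without any single library, and these were Rpl38, Rps27l, Rpl24, Rpl27, Rpl41, Rpl21, Rpl22, Rps20, Rps4x and Rpl3l. Rpl36a lost its WT call without WT normal library 2, 3 or 5 or WT CTX library 1, 2 or 3 (adjusted p = 0.0538 to 0.0918) and its KO call without KO normal library 1, 2 or 3 or KO CTX library 2 (0.0514 to 0.113). Rps3 lost its WT call without WT normal library 3 or 6 or any WT CTX library (0.0552 to 0.0725) and its KO call without KO normal library 3 or KO CTX library 1 or 2 (0.0558 to 0.0666). Rps16 lost its KO call without any of 11 libraries, WT ones included (0.0517 to 0.131), and its WT call without WT normal library 6 or WT CTX library 4 (0.064 and 0.0511). Rpl3 lost its KO call without KO normal library 2 or 3 or KO CTX library 1 or 2 (0.0659 to 0.0829), and Rpl23a without KO CTX library 1 (0.0556). In WT, the calls of Rpl5, Rps14 and Rps27 were lost without WT normal library 6 (0.0541, 0.0647 and 0.0703), those of Rpl5 and Rps27 without WT CTX library 1 (0.0503 and 0.0557) and that of Rpl5 without WT CTX library 4 (0.0804). The WT count of members that gained on this scale rests on few libraries: it was 6 without WT normal library 6, 9 without WT CTX library 1 or 2, 8 without WT CTX library 4 and 5 in male libraries alone, where 7 lost ground.

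**Figure D5:**
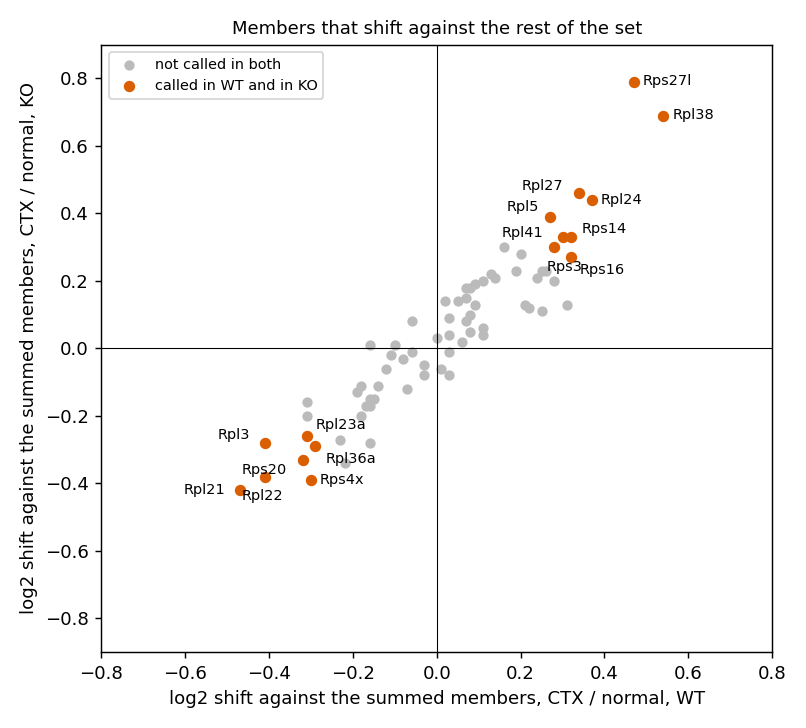
Log2 shift of members against the summed members, CTX against normal muscle, WT on the horizontal and KO on the vertical axis; orange points are called in both genotypes. Rpl3l, Rps27 and Rpl34, counted too sparsely to fit the axes, are left off; Rps27l and Rpl38 lie at one end (0.47 and 0.79, 0.54 and 0.69) and Rpl21 toward the other (-0.47 and -0.42).

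Across the 74 members other than those 3, the TMM log2 fold changes in WT and KO had a Pearson correlation of 0.94 and a Spearman correlation of 0.94. The 2 estimates share no library, but they share gene, length and kit, and their same-numbered normal libraries deviated together. The WT change was unrelated to coding transcript length over the 73 of them with a length (Pearson -0.14, Spearman -0.04), to the share of 50-base stretches found in other genes (-0.01 and -0.02) or, over 74, to the mean level (0.05 and 0.08), as descriptions across genes, which are not independent.

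No member was called between the genotypes. In normal muscle the members' median log2 fold change of KO against WT was 0.08 with TMM (all genes 0.00), 0 members passed the test, where 0% of all genes did, and 1 member was at an unadjusted p under 0.05. Same-numbered normal libraries deviated together, and the direction turned when the replicate number was a block. The median was -0.07 with the block over all libraries. That block also ties CTX to normal libraries of the same number, though these did not deviate together. With a block on normal replicates 2, 3 and 5 alone, a setting added after seeing the data, the median was -0.14. There 0 members were called and 14 were at an unadjusted p under 0.05. That setting leaves out KO normal library 1 and WT normal library 6, so a paired effect and the loss of these libraries cannot be told apart. The share of all tested genes at such a p is not given, here or in the other settings. Members also share their libraries, so counts at an unadjusted p only describe the members. Without the block, the 1 member at such a p was Rpl29 of the large subunit (0.26 ± 0.12, SE; adjusted p = 0.991), followed by Rpl6 (0.20 ± 0.10, adjusted p = 0.991). In CTX muscle the median was -0.06 (all genes -0.02), 0 members were called, where 0.00733% of all genes were, and none was at an unadjusted p under 0.05. The smallest p there belonged to Rpl36 (-0.20 ± 0.14, adjusted p = 0.923) and Rps27 (-0.53 ± 0.45, adjusted p = 0.953). DESeq2 and limma voom called none either. With total counts, 3 members in normal and 0 in CTX muscle were at an unadjusted p under 0.05.

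The signed log2 fold change of injury was lower in KO than in WT for 75 of 77 members, among them Rps27, whose fall was larger in KO. The share of all tested genes that were lower in KO is not given. None of the differences was called (0% of all tested genes were), and none was at an unadjusted p under 0.05. With limma voom 12 were at such a p and none was called, and the share of all tested genes at such a p is not given. The median difference was -0.15 on the log2 scale with either scaling (all genes -0.01 with TMM and 0 with total counts). The single values with TMM ran from -0.78 (Rps27) to 0.63 (Rpl3l). The smallest p belonged to Rpl10a (-0.28 ± 0.14, SE) and Rpl6 (-0.26 ± 0.15). Members share the libraries they are measured in, and the difference rested on few of them: without KO normal library 1, the highest normal library for most members, the median difference was 0.01 and 42 of 77 were positive, and without WT normal library 6 it was -0.05. With the replicate number as a block it was 0.01, with 39 of 77 positive. The normal medians moved likewise, to -0.05 without KO normal library 1 and to 0.21 without KO normal library 5.

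Other genes of the translation machinery were counted for comparison. Of 6 tested ribosomal genes that the symbol pattern misses, all 6 rose in WT and in KO with TMM, where 33.3% of all tested genes rose in each (median log2 fold change 0.87 and 0.70). Rpl36al, a paralog of Rpl36a, rose by 1.52 ± 0.11 (SE; adjusted p = 1.27e-08) in WT, more than any of the 77 tested members on this scale, where X-linked Rpl36a itself rose by 0.56 (adjusted p = 0.0063). Fau, which codes for a ribosomal protein fused to a ubiquitin-like domain, rose by 0.88 in WT. Of the 14 elongation factors and other TOP mRNAs, 12 rose in WT and 10 in KO and none fell (medians 0.93 and 0.80), beside 39.4% and 40.2% of all tested genes that fell. Tpt1 rose by 1.29 and 1.32, the elongation factor Eef1a1 by 0.94 and 0.71, and Nap1l1 was at 0.01 and -0.05 (adjusted p = 0.902 and 0.629).

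With TMM, 33.3% of all tested genes rose in each genotype and 39.4% (WT) and 40.2% (KO) fell. Of 35 tested initiation factors 29 rose and 1 fell in each genotype, with medians of 0.85 and 0.82; Eif2s1, which codes for the regulatory alpha subunit of eIF2, rose by 1.52 in both. Ribosome biogenesis genes were more mixed, with 33 of 46 higher and 2 lower in WT and 31 and 1 in KO (medians 0.61 and 0.51). All 77 mitochondrial ribosomal protein genes were tested: 56 rose in WT and 61 in KO, none fell, and the median was 0.63 in both. With total counts the biogenesis and mitochondrial medians fell to between -0.10 and 0.01, with 12 higher and 13 lower among the former and 11 and 14 among the latter in WT, where 14.2% of all tested genes rose and 61.1% fell. The share of mitochondrial ribosomal genes that rose (11 of 77) was thus near that of all genes. The 14 proteasome core genes, listed as another abundant complex, all rose in both genotypes with TMM (medians 1.56 and 1.60), and 13 and 14 of them with total counts. With total counts, where 14.1% of all genes rose and 61.5% fell in KO, the other lists were more divided: 2 of the 6 ribosomal genes outside the pattern rose in each genotype, 8 of the 14 elongation factors and TOP mRNAs rose and 2 fell in WT (7 and 2 in KO), and 16 of 35 initiation factors rose and 5 fell in WT (14 and 6 in KO).

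Genes of mTOR signalling and of TOP mRNA control moved in both directions, with 14 of 28 higher and 6 lower in WT and 15 and 5 in KO with TMM, beside 33.3% of all tested genes higher in each and 39.4% (WT) and 40.2% (KO) lower. Larp1, which binds the start of TOP mRNAs, rose by 0.48 ± 0.11 (SE; adjusted p = 0.00105) in WT and 0.66 ± 0.11 (adjusted p = 6.08e-05) in KO, and was at -0.13 and 0.06 with total counts, neither called. Eif4ebp1, the translation repressor that mTORC1 phosphorylates, rose by 1.81 and 1.72, and Sesn2, an mTORC1 inhibitor, by 1.34 and 1.12. Deptor, another inhibitor, fell by 2.25 in WT and by 2.34 in KO. Mtor was at -0.14 and -0.05 with TMM (adjusted p = 0.324 and 0.754) and fell by 0.77 and by 0.65 with total counts. Myc, a transcription factor that drives ribosome genes in many cells, fell by 0.39 (adjusted p = 0.00807) in WT and by 0.64 (adjusted p = 0.000197) in KO.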

How the data were processed

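Macrophage RNA of 16 libraries was analysed from the deposited counts, whole reads per gene symbol and not normalized. Per the submitters' processing notes, FastQC 0.11.7, cutadapt 1.18, HISAT2 2.1.0 and featureCounts of Subread 1.6.2 were used with mm10; the annotation, strand setting and handling of multi-mapping reads are not given in the sources used here. The kit keeps no strand, so overlapping antisense genes cannot be told apart. Amplified reads are not independent molecules, and limits from counts cover counting error only. No row was left out as naming no gene, and 0 per-sample columns were left unused.

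Genes passing filterByExpr by group (13649) entered edgeR 4.0.16's quasi-likelihood test (R 4.3.3) with 1 coefficient per group over all 16 libraries, Benjamini-Hochberg adjustment over all of them and a threshold of 0.05. Scaling was by TMM, by library totals or by the summed members. A total of 5 comparisons was made: injury in WT and in KO, genotype in normal and in CTX muscle, and their interaction. The test was run on simulated data in which few genes changed, as many up as down. These data differ from that setting, so the simulation does not check the choice of scaling. Alternatives included DESeq2 1.42.0 and limma 3.58.1. Members and lists were chosen with earlier results of these data known. Named members were the 6 of largest and 6 of smallest WT change, the 5 of highest and 3 of lowest level, the 2 of smallest p in each comparison without calls, those that fell, the 6 of smallest p that rose in both genotypes by total counts, the largest shifts within the set, and those that failed the filter. Genes outside the members were named from the lists after their values were seen.

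Coordinates and lengths came from GENCODE M21 on GRCm38, which mm10 names, where all 79 members matched; Rps4l is annotated there as a transcribed processed pseudogene. No pair of libraries in a group agreed within sampling noise: the closest pairs were WT CTX 1 with 2 (chi-square 6.33 per degree of freedom) and KO CTX 3 with 4 (7.65), and the others gave 13.9 to 104. Replicate numbers come from sample titles. In normal muscle, same-numbered WT and KO libraries deviated together (correlations 0.73, 0.67 and 0.25 for numbers 2, 3 and 5). In CTX muscle they did not (-0.18 to -0.01). The labels state no pairing, so whether the numbers pair the normal libraries is not known. In Malat1, KO normal library 5 (7301 CPM) was near WT normal library 6 (6964 CPM) and not near WT normal library 5 (2520 CPM). Results for some items are not reported here, and 2 members are not shown in the plots.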

Additional observations from a re-analysis of the deposited data

Results flagged for a closer look

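In groups of 4 libraries, a library was singled out where its gap to the nearest other exceeded Dixon's 95% critical share of the group's range. Of 116 groups checked, 2 met this, where chance gives about 5.8. Rpl6 of the large subunit was at 103 CPM in WT CTX library 3, against 117 to 118 CPM in the other WT CTX libraries, and that library also had the lowest summed members of its group (8150 CPM). Rpl30 was at 0.173 CPM in KO CTX library 1, against 0.335 to 0.364 CPM in the others, which is 3 counts against 6 or 7.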

How the results depend on the processing

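Counts of members past the threshold kept within 1.5 times of the value given for 255 of 272 alternatives. Scaling moved them most: with library totals 22 members rose and 2 fell in WT and 9 rose in KO, and with upper-quartile factors 41 rose in KO. The other settings left 59 to 75 rising in WT and 58 to 73 in KO, the replicate block giving 65 and 70. No member fell in WT or KO with a filter of 5 CPM in 4 libraries (0 each), which removes Rpl3l and Rps27, and 1 fell in KO with limma voom, with only the 2 groups compared, with the replicate block and in male libraries. Leaving out single libraries gave 1 to 2 falling in KO, and 6 to 15 rising in WT against the summed members; in male libraries, chosen as a setting for that scale after seeing the data, it was 5 rising and 7 falling. Of 943 alternatives for 34 named values, 7 changed sign. With library totals, the log2 changes were -0.23 (Rpl21), -0.18 (Rpl3) and -0.17 (Rpl22) in WT and -0.35, -0.21 and -0.29 in KO. With upper-quartile factors Rpl21 was at -0.04 in KO. The cause was not tested. Leaving out normal replicates 1 and 2, added after seeing the data, gave 75 members rising in WT and 73 in KO. The sparse members (Rps27, Rpl34, Rpl3l, Rpl30 and Rpl39l) are limited by depth, and same-numbered libraries in CTX muscle did not deviate together.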

Other observations

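The table also holds 7 ribosomal pseudogene symbols and 2 retrogene symbols, none of them a member. Rpl14-ps1 had 7243 counts and rose with TMM scaling, by 0.74 in WT (edgeR adjusted p = 0.000474) and 0.68 in KO (adjusted p = 0.000817), and Rpl37rt had 2549 counts and rose by 0.61 (adjusted p = 0.0095) and 0.61 (adjusted p = 0.00951). Rps19-ps3, with 152 counts, was at 0.45 and -0.39 (adjusted p = 0.259 and 0.319). The other pseudogene symbols had 0 to 100 counts in all libraries together, and Rps27rt, a copy of the sparsely counted Rps27, had 0.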
